A study of Mus musculus with 13 samples.

Results

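The genes described here are 40 interferon-stimulated genes, a fixed list of symbols that covers antiviral effectors, cytosolic RNA sensors, transcription factors, regulators, interferon-gamma-induced GTPases and antigen-processing genes. A symbol was measured where an array probe set (a group of probes read as 1 transcript) named it and no other gene, and where several did, the one brightest on average across the arrays stood for the gene. This gave 38 of the 40 symbols among 22180 named genes; Oas1a and Gbp2 were not analysed here. All 38 were among the 12710 genes tested, those exceeding a floor of 4.31 log2 on 4 arrays or more; the floor is the median of the whole table. On every array 37 of them were above this floor, so the filter did not select them by treatment, and Mx1 was at or below it on 4 of 13 arrays.

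The RNA came from donor CD4+ T cells responding to the tissue antigens of their host in a mouse model of graft-versus-host disease. Splenocytes of C57Bl/6 mice, stained with the division dye CFSE, were transferred into B6D2F1 hosts, and both strains were 10 to 12 weeks old. Hosts received vehicle (4 arrays), TCDD at 15 µg/kg on day 0 (4 arrays), or Cl-BBQ at 10 mg/kg on days 0, 1 and 2 (5 arrays), all by intraperitoneal injection. Vehicle followed the Cl-BBQ schedule, so TCDD differs from vehicle also in its days of treatment, and the ligands differ from each other in dose and days. Donor CD4+ cells with CFSE diluted through 2 or more divisions were collected from spleen and lymph node at 72 h, enriched with magnetic beads and sorted. All groups carry the transfer, and no untransferred or undivided T cells were analysed here. TCDD (dioxin) and Cl-BBQ both bind the aryl hydrocarbon receptor (AhR), a transcription factor switched on by small molecules.

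Type I interferons bind the IFNAR1 and IFNAR2 chains and act through the kinases JAK1 and TYK2 on a complex holding STAT2 and IRF9, which binds interferon-stimulated response elements (ISRE) in target promoters. Interferon-gamma, a main product of T helper 1 cells, binds IFNGR1 and IFNGR2 and acts through STAT dimers on gamma-activated sites (GAS), and IRF1 and IRF8 carry part of that response further. In T cells these genes are best known for restricting viruses, for building the immunoproteasome that cuts peptides for MHC class I, and for tuning how a cell reacts to later cytokine signals.

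The labelled cell type was checked against its markers. Cd4 averaged 10.52, 10.58 and 10.58 log2 in the vehicle, TCDD and Cl-BBQ groups. In the same order Thy1, another T cell identity gene, averaged 11.43, 11.72 and 11.79, and Cd8b1, a CD8 T cell marker, 6.74, 6.48 and 6.88. Cd8b1 was above the floor on every array. Cd8a, another CD8 T cell marker, averaged 4.17, 4.75 and 4.77. It was above the floor on 0 of 4 vehicle, 3 of 4 TCDD and 4 of 5 Cl-BBQ arrays. The other CD8 T and natural killer cell markers were Klrb1c (6.1, 5.77 and 5.6), Ncr1 (4.05, 4.38 and 4.24) and Eomes (4.0, 3.39 and 3.61). Array medians lay between 4.27 and 4.33 log2. Of 7 measured B cell markers, Cd79b and Pax5 were above the floor on all 13 arrays, Ms4a1 and Ebf1 on none, and the other 3 on some. Of 12 myeloid and dendritic cell markers, Cd68, Fcer1g and Tyrobp were above it on all 13, Itgax, Lyz2, Adgre1 and Cd14 on none, and the other 5 on some. The summed level of 12 myeloid and dendritic cell markers was 8.43 to 8.82 log2 with vehicle, 8.40 to 8.86 with TCDD and 8.48 to 8.69 with Cl-BBQ, and that of 7 B cell markers was 7.41 to 7.64, 6.93 to 7.18 and 7.00 to 7.34. The lower B cell sum with treatment went with Cd22, an inhibitory lectin, whose mean of 6.17 with vehicle compared with 4.03 for TCDD and 4.10 for Cl-BBQ. Other B cell markers did not share this fall. In the same order Pax5 averaged 4.77, 4.75 and 4.75, and Cd79a 4.55, 4.56 and 4.35. Cd79b went the other way, at 4.69, 4.79 and 5.33. The myeloid sum pools opposite changes, since with both ligands Cybb fell and Cd68 rose. In sorted but bulk samples such as these, fewer cells of a type and less RNA per cell cannot be told apart.

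Single arrays stood apart over the whole list, which bears on every comparison. TCDD replicate 2 was the lowest of the 4 TCDD arrays for 33 of the 38 genes, while it was the lowest for 24.9% of all genes tested. It lay below the TCDD mean for all 38, with a median deviation of -0.26 log2, against 0.00 over all genes. Cl-BBQ replicate 3 was the highest of the 5 Cl-BBQ arrays for 26 of the 38 genes (24.7% of all genes) and above its group mean for 37, with a median deviation of 0.19. Vehicle replicate 3 was the lowest vehicle array for 22 of the 38 (33.9% of all genes), with a median deviation of -0.15. Differences that were not called also turned their sign, in 14 cases over the 3 comparisons without TCDD replicate 2, in 7 without Cl-BBQ replicate 3 and in 7 without vehicle replicate 3.

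**Figure D1:**
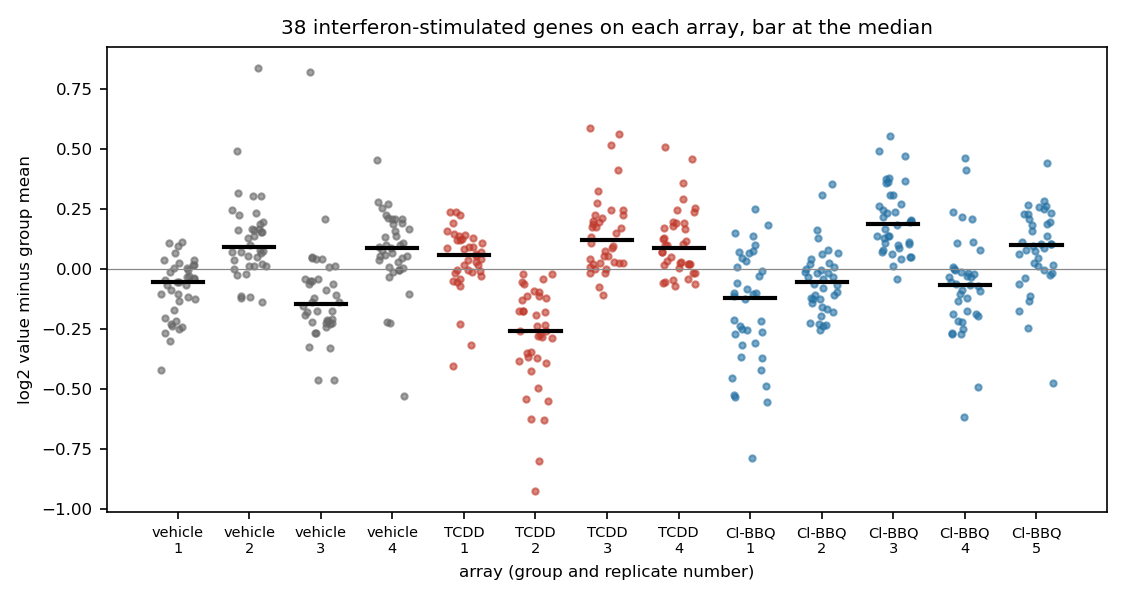
Deviation of each of the 38 interferon-stimulated genes from the mean of its own treatment group (log2, vertical axis) on each of the 13 arrays (horizontal axis); each point is a gene and the bar is the median of the 38. TCDD replicate 2 has all 38 points below 0 and a median of -0.26, and Cl-BBQ replicate 3 has 37 points above 0 and a median of 0.19.

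The level of the list as a whole overlapped between the groups, while single genes moved in both directions. The mean level over the 38 genes was 8.0 ± 0.12 log2 with vehicle (SD, n = 4), 8.04 ± 0.20 with TCDD (SD, n = 4) and 8.06 ± 0.14 with Cl-BBQ (SD, n = 5). The array means ran from 7.88 to 8.13 with vehicle, from 7.74 to 8.18 with TCDD and from 7.89 to 8.26 with Cl-BBQ. The 6 genes that were called in at least 1 comparison were Oas2, Ddx58, Gbp7 and Gbp3, which were higher with ligand, and Irf8 and Psmb8, which were lower. A gene was called where limma, a linear model fitted to all genes tested, gave an adjusted p under 0.05 (Benjamini-Hochberg over all 12710 genes).

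TCDD was compared with vehicle to see which of these genes the dioxin altered. Oas2 and Ddx58 rose, no member fell by this test, and the other 36 did not pass. These 2 of 38 genes are 5.26% of the list, while 6.71% of all genes tested were called (3.21% higher and 3.5% lower), so the share on the list was not above the background. At an unadjusted p under 0.05 there were 9 of the 38 (23.7%, against 18% of all genes). The log2 differences ran from -1.07 for Irf8 to 0.90 for Oas2, with 19 of 38 above 0 (49.8% of all genes) and a median of 0.01, against a median of -0.001 over all genes. Without TCDD replicate 2 the median was 0.10 and 26 of 38 differences were above 0, with 2 genes still called. For 32 of the 38 the difference was within 0.3 log2 of 0, and for 36 the 95% interval lay inside -1 to 1.

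Cl-BBQ was compared with vehicle in the same model. Oas2, Ddx58, Gbp7 and Gbp3 rose and Irf8 and Psmb8 fell, which is 6 of 38 genes (15.8%), against 11.3% of all genes tested (5.31% higher and 6.03% lower); nothing particular to the list is read from this count. At an unadjusted p under 0.05 there were 12 of the 38 (31.6%, against 23% of all genes). The differences ran from -1.26 for Irf8 to 1.17 for Oas2, with 24 of 38 above 0 (48.8% of all genes) and a median of 0.05, against -0.006 over all genes. This median depended on single arrays, being -0.01 without vehicle replicate 3, 0.01 without vehicle replicate 1 or Cl-BBQ replicate 3, 0.08 without vehicle replicate 4 or Cl-BBQ replicate 1, and 0.10 without vehicle replicate 2. Vehicle and Cl-BBQ arrays did not overlap for 8 of 38 genes (21.1%, against 12.9% of all genes). Of these 8, Oas2, Ddx58, Gbp7, Gbp3 and Zbp1 were higher (6.08% of all genes) and Irf8, Psmb8 and Tap1 lower (6.8%). Vehicle and TCDD arrays did not overlap for 3 of 38 genes (7.89%, against 13.6%), with Gbp3 higher (6.31% of all genes) and Irf8 and Psmb8 lower (7.28%).

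**Figure D2:**
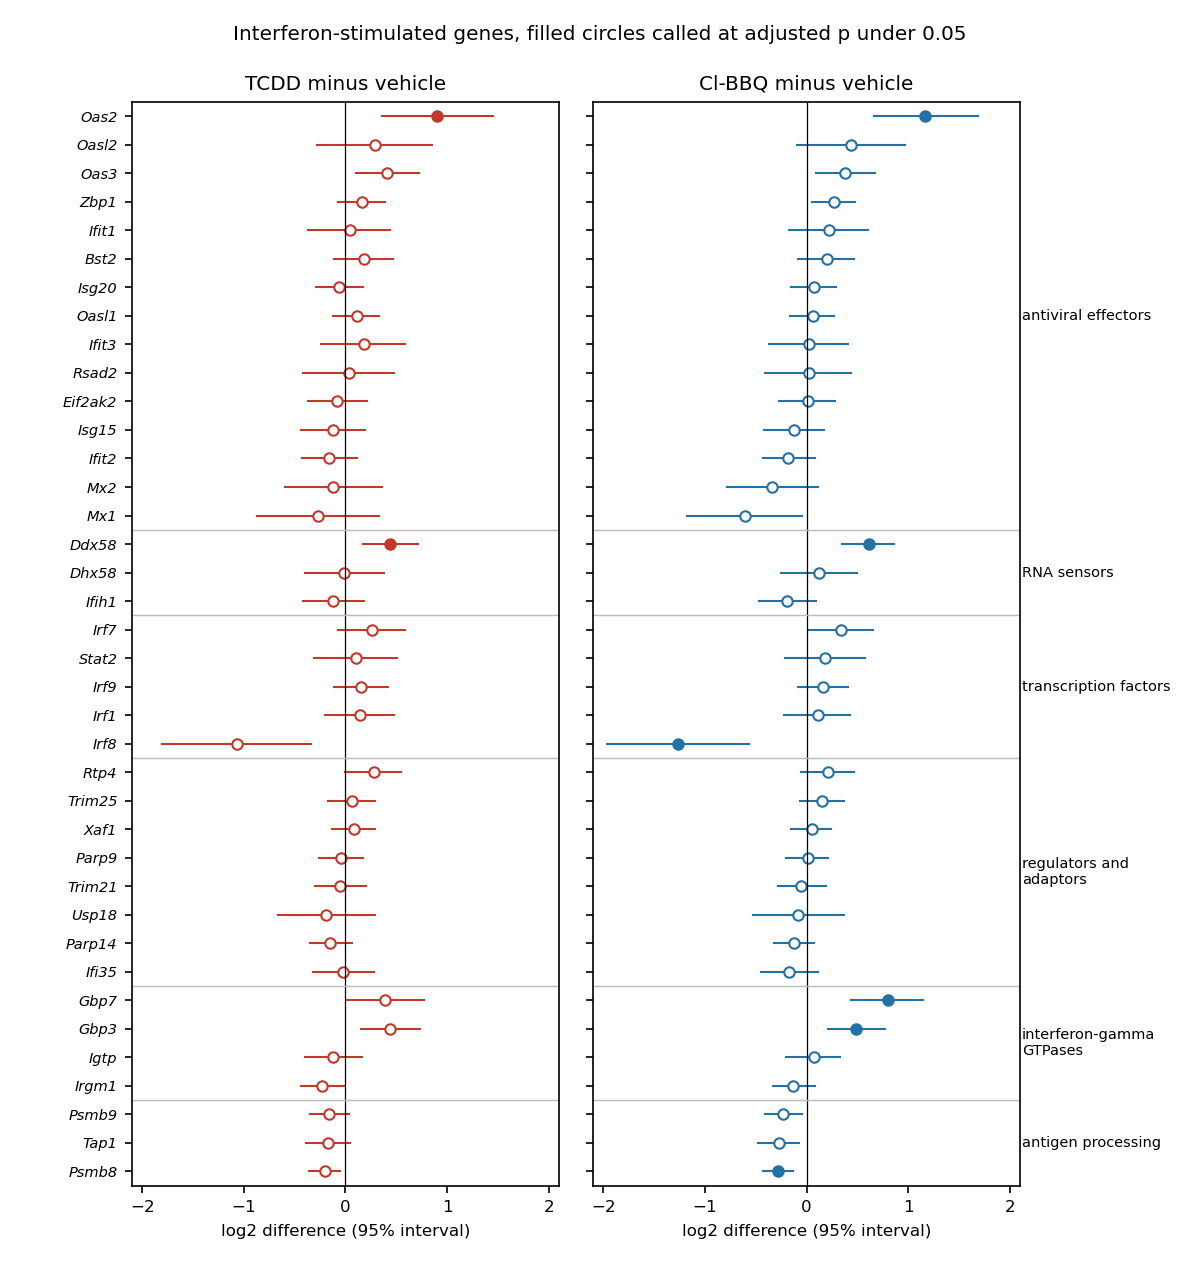
Log2 difference from vehicle (horizontal axis) of the 38 interferon-stimulated genes, grouped by role, for TCDD and for Cl-BBQ, with 95% intervals from the limma model; filled points are called at an adjusted p under 0.05. Most points lie within 0.3 of 0, and the widest from 0 are Oas2 on the right and Irf8 on the left with both ligands.

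Cl-BBQ and TCDD were also set against each other, at doses and days that differ. None of the 38 genes was called (limma), while 0.0236% of all genes were, and no gene had arrays without overlap, against 2.11% of all genes. At an unadjusted p under 0.05 there was 1 gene of the 38 (6.41% of all genes), Gbp7, which was 0.41 log2 higher with Cl-BBQ (95% interval 0.05 to 0.76, limma, adjusted p = 0.75). The differences ran from -0.35 for Mx1 to 0.41 for Gbp7, with a median of 0.02 and 21 of 38 above 0. Without TCDD replicate 2 the median was -0.07, with 13 of 38 above 0, and Gbp7 no longer had an unadjusted p under 0.05. Without Cl-BBQ replicate 3 the median was -0.01, with 15 of 38 above 0 and again no gene under 0.05. The 95% interval lay inside -1 to 1 for all 38 genes and inside -0.5 to 0.5 for 28. A difference of 1 log2 or more between the regimens is thus outside every interval. Smaller differences are outside the interval for some genes and inside it for others.

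The promoters of the called genes that the RefSeq table holds are printed here, with that of Isg15, a gene that was not called, because they show the letters that interferon signalling and the AhR are known to read. Of the 38 measured genes 29 had an entry, Oas2 not among them. Each sequence is the 250 bases before the annotated start on the gene's own strand, 5′ to 3′, in RefSeq's GRCm38.p6 assembly, and where a gene has several starts the first listed is shown. Capitals mark every match, on either strand, to GAAA, any 2 bases and GAAA (ISRE-type), TTCNNNGAA (GAS-type) or GCGTG (the AhR core). Ddx58 lies at chr4:40239826-40240075 on the minus strand, Gbp7 at chr3:142530086-142530335, Gbp3 at chr3:142559794-142560043, Irf8 at chr8:120736108-120736357 and Psmb8 at chr17:34197945-34198194 on the plus strand, and Isg15 at chr4:156200819-156201068 on the minus strand.
Ddx58: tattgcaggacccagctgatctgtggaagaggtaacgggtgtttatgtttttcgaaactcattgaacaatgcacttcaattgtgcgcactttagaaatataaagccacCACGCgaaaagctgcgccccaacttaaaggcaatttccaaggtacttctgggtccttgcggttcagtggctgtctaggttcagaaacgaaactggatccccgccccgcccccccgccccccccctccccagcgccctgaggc
Gbp7: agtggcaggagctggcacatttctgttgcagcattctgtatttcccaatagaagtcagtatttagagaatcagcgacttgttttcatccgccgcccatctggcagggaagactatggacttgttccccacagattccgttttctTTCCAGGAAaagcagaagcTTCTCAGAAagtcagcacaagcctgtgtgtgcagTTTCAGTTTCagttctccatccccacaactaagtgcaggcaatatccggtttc
Gbp3: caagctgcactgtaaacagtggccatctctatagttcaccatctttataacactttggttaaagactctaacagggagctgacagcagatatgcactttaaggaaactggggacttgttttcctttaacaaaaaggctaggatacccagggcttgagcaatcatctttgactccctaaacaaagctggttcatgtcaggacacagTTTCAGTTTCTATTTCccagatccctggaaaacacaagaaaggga
Irf8: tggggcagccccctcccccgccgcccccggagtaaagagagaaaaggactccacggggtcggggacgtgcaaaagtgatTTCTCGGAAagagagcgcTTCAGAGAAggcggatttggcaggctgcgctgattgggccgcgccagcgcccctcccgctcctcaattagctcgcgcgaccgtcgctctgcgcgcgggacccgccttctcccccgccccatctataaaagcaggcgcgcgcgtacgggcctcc
Psmb8: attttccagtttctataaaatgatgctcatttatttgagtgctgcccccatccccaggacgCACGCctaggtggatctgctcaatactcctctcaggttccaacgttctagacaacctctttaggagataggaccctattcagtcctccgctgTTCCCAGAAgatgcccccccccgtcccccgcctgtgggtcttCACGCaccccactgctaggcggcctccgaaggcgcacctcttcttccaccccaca
Isg15: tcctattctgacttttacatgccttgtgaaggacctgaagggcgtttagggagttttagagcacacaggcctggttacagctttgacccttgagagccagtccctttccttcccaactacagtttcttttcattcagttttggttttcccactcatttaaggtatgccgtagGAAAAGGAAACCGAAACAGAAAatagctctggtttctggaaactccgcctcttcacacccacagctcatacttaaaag

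The windows of the called genes differ in what they hold. Gbp7 has 1 ISRE-type match, beginning 53 bases before the start, and 2 GAS-type matches at 106 and 87 bases. Gbp3 has 2 ISRE-type matches that overlap each other, at 45 and 39 bases. Irf8 has 2 GAS-type matches, at 171 and 153 bases, and no ISRE-type match. The windows at the other annotated start of Irf8 and of Gbp3, not printed, hold no match. Psmb8 has 1 GAS-type match at 97 bases and 2 AhR cores at 189 and 55 bases. Ddx58 has 1 AhR core at 142 bases and no match to either interferon pattern as searched. The ISRE-type search required exactly 2 bases between the GAAA repeats. The Ddx58 window holds GAAACGAAA, with 1 base between them, which was not counted. Isg15 has 3 ISRE-type matches, each overlapping the next, at 78, 72 and 66 bases. Over 36 windows of 29 measured genes, 11 (30.6%) held an ISRE-type match, against 2.98% of all 32851 windows in the table. For GAS-type letters these shares were 9 of 36 (25%) and 7.02%, and for the AhR core 10 of 36 (27.8%) and 28.2%. A match describes the letters and no more, and binding was not measured.

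Among 15 measured antiviral effectors, Oas2 rose with both ligands and the other 14 were not called with either. For this and the role groups below, 6.71% (TCDD) and 11.3% (Cl-BBQ) of all genes tested were called. Oas2 makes the oligoadenylates that switch on RNase L. Its levels were 6.83, 7.39, 6.76 and 7.35 log2 in the vehicle arrays, 7.67, 7.36, 8.57 and 8.35 with TCDD, and 7.77, 8.14, 8.36, 8.49 and 8.52 with Cl-BBQ. The Cl-BBQ arrays all exceeded the vehicle arrays, while TCDD replicate 2 fell within the vehicle range and the other TCDD arrays lay above it. With Cl-BBQ the difference was 1.17 ± 0.24 log2 (SE), a 2.25-fold rise (limma, adjusted p = 0.0042). With TCDD it was 0.90 ± 0.25 (SE), a 1.87-fold rise (limma, adjusted p = 0.046). The TCDD call was kept in 3 of 13 fits that each left out 1 array (TCDD replicate 1, TCDD replicate 2 or Cl-BBQ replicate 1), with adjusted p from 0.014 without TCDD replicate 2 to 0.14 without TCDD replicate 3, and the Cl-BBQ call was kept in all 13.

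Of the other synthetase genes on the list, Oas3 and Oasl2 had smaller differences than Oas2. Oas3, a relative of Oas2 in the same pathway, was at 7.80 ± 0.29 with vehicle (SD, n = 4), 8.21 ± 0.18 with TCDD (SD, n = 4) and 8.18 ± 0.16 with Cl-BBQ (SD, n = 5). Its differences of 0.41 and 0.38 did not pass (limma, adjusted p = 0.12 and 0.10), and the groups overlapped. Oasl2, which resembles the synthetases, was 0.29 higher with TCDD and 0.44 higher with Cl-BBQ (limma, adjusted p = 0.66 and 0.33). Zbp1, a sensor of nucleic acids in the Z form that can start necroptosis, was at 10.21 to 10.50 with vehicle, 10.29 to 10.70 with TCDD and 10.53 to 10.77 with Cl-BBQ. The Cl-BBQ arrays were all above the vehicle arrays, by 0.27 on average, which did not pass (limma, adjusted p = 0.12).

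Widely used reporters of interferon signalling were not called with either ligand. Isg15, a ubiquitin-like modifier, was at 9.27, 9.31, 8.96 and 9.17 log2 with vehicle, 9.17, 8.66, 9.16 and 9.22 with TCDD, and 8.97, 8.93, 9.42, 8.86 and 9.10 with Cl-BBQ. The groups overlapped, and both differences were -0.12, with 95% intervals of -0.44 to 0.19 and -0.42 to 0.17. Without TCDD replicate 2, the lowest, the TCDD difference of Isg15 was 0.01. Ifit1, which binds viral RNA that lacks the host cap, differed by 0.04 (95% interval -0.37 to 0.44) and 0.22 (-0.17 to 0.60). The GTPase genes Mx1 and Mx2 had negative differences, of -0.27 and -0.12 with TCDD (0.05 for Mx2 without TCDD replicate 2) and -0.61 and -0.34 with Cl-BBQ. None passed (limma, adjusted p from 0.18 to 0.86). Mx1 was the weakest signal of the list, with group means of 5.01, 4.74 and 4.39 log2.

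Of the 3 cytosolic RNA sensors Ddx58 rose with both ligands. Ddx58 encodes RIG-I, a sensor of uncapped viral RNA. Its levels were 8.02, 8.02, 7.87 and 8.18 log2 with vehicle, 8.53, 8.10, 8.66 and 8.57 with TCDD, and 8.57, 8.61, 8.69, 8.45 and 8.82 with Cl-BBQ. Every treated array except TCDD replicate 2 was above every vehicle array. The rise was 0.61 ± 0.12 log2 (SE) or 1.52-fold with Cl-BBQ (limma, adjusted p = 0.003), and 0.44 ± 0.13 (SE) or 1.36-fold with TCDD (limma, adjusted p = 0.0497). The TCDD call stood at the edge of the threshold and was kept in 2 of 13 fits that each left out 1 array (vehicle replicate 4 or TCDD replicate 2), with adjusted p from 0.0068 without TCDD replicate 2 to 0.15 without TCDD replicate 3. The Cl-BBQ call was kept in all 13.

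The other RNA sensors did not share this. Ifih1, which encodes MDA5, the sensor of long double-stranded RNA, differed by -0.12 with TCDD and -0.19 with Cl-BBQ (limma, adjusted p = 0.73 and 0.44). Dhx58, which encodes LGP2, a regulator of both sensors, differed by -0.01 and 0.12 (limma, adjusted p = 0.99 and 0.75), or by 0.11 with TCDD without TCDD replicate 2 and -0.03 with Cl-BBQ without vehicle replicate 3.

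Of the 5 transcription factor genes Irf8 fell with Cl-BBQ and the other 4 were not called with either ligand. IRF8 is best known for directing myeloid, dendritic and B cell development, and it is also made in activated T cells. Its levels were 6.99, 7.04, 7.98 and 6.63 log2 with vehicle, 6.14, 5.16, 6.50 and 6.55 with TCDD, and 5.11, 6.25, 5.86, 6.36 and 5.91 with Cl-BBQ. All treated arrays were below all vehicle arrays, and vehicle replicate 3 was the highest of all. With Cl-BBQ Irf8 fell by 1.26 ± 0.32 log2 (SE), 2.40-fold lower (limma, adjusted p = 0.019). The TCDD difference of -1.07 ± 0.34 (SE) did not pass (limma, adjusted p = 0.085). Without vehicle replicate 3 the Cl-BBQ difference was -0.99 and no longer passed (limma, adjusted p = 0.074).

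A second Irf8 probe set, with lower signal, also had no overlap between treated and vehicle arrays. It was at 4.80 to 5.45 log2 with vehicle, 4.52 to 4.63 with TCDD and 4.13 to 4.68 with Cl-BBQ. Because IRF8 is abundant in myeloid and B cells, markers of those cells are given beside it. Cybb, a subunit of the phagocyte oxidase, was at 6.81, 7.11, 6.46 and 5.96 log2 with vehicle, 5.20, 3.76, 4.85 and 3.94 with TCDD, and 4.38, 3.65, 3.71, 4.18 and 4.61 with Cl-BBQ. Cybb and Cd22 fell with both ligands, while the B cell markers Pax5, Cd79a and Cd79b were called with neither. Cd68, a lysosomal protein of macrophages, rose with both. Its calls were lost without vehicle replicate 1, 3 or 4, or without TCDD replicate 1 or 4 (TCDD) and any of Cl-BBQ replicates 2 to 5 (Cl-BBQ). Tyrobp, a signalling adaptor of myeloid and natural killer cells, rose by 0.49 ± 0.13 (SE) with Cl-BBQ (limma, adjusted p = 0.025), a call lost without vehicle replicate 2, 3 or 4 or Cl-BBQ replicate 2 or 4 (up to 0.076). The summed myeloid level overlapped between the groups as given above. That sum pools opposite changes, so its overlap does not show that its genes were unchanged. In the vehicle, TCDD and Cl-BBQ groups Cybb averaged 6.58, 4.44 and 4.11 log2, and Cd68 6.47, 7.27 and 7.11. Of the remaining marker lists, Thy1 was called higher with TCDD and Cl-BBQ (limma, adjusted p = 0.035 and 0.0042). Its TCDD call was kept in 6 of 13 fits that each left out 1 array. Ccr9, on the plasmacytoid dendritic cell list, was also called higher with both (limma, adjusted p = 0.00051 and 3.6e-05). Of 4 tested CD8 T and natural killer cell markers 0 were called. The levels of B and myeloid markers relative to the floor are given above, and the part of such cells in the Irf8 result was not tested.

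The factors that carry interferon signals most directly were not called. Stat2 differed by 0.10 with TCDD (95% interval -0.31 to 0.51) and 0.18 with Cl-BBQ (-0.21 to 0.58). Irf9, its partner, differed by 0.15 (-0.11 to 0.42) and 0.16 (-0.08 to 0.41). Irf7, the factor that amplifies type I interferon production, was at 8.21 ± 0.24 with vehicle (SD, n = 4) and was 0.26 and 0.34 higher with TCDD and Cl-BBQ, which did not pass (limma, adjusted p = 0.43 and 0.18). Irf1, induced early by interferon-gamma, differed by 0.14 and 0.11 (limma, adjusted p = 0.73 and 0.76).

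**Figure D3:**
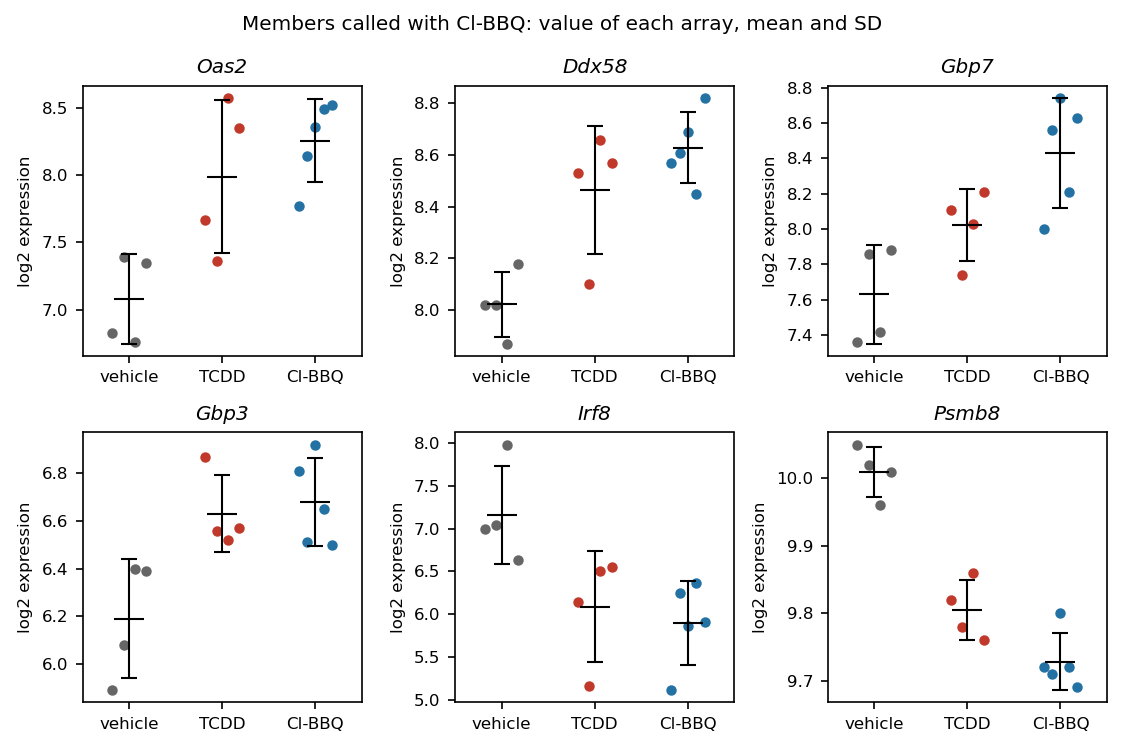
Log2 level (vertical axis) of Oas2, Ddx58, Gbp7, Gbp3, Irf8 and Psmb8 on each array by group (4 vehicle, 4 TCDD, 5 Cl-BBQ), with the group mean and SD. Treated arrays lie above vehicle for Oas2, Ddx58, Gbp7 and Gbp3, with TCDD replicate 2 inside the vehicle range for Oas2, Ddx58 and Gbp7, and below vehicle without overlap for Irf8 and Psmb8.

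Of the 4 interferon-gamma-induced GTPase genes measured, both guanylate-binding protein genes rose with Cl-BBQ and neither was called with TCDD. Guanylate-binding proteins attack the vacuoles and membranes of pathogens. Gbp7 was at 7.36, 7.86, 7.42 and 7.88 log2 with vehicle, 8.11, 7.74, 8.03 and 8.21 with TCDD, and 8.0, 8.56, 8.74, 8.21 and 8.63 with Cl-BBQ. Only the Cl-BBQ arrays were all above the vehicle arrays. The rise with Cl-BBQ was 0.80 ± 0.17 log2 (SE) or 1.74-fold (limma, adjusted p = 0.0048) and was called in all 13 fits that left out 1 array. With TCDD the difference was 0.39 ± 0.18 (SE; limma, adjusted p = 0.25).

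Gbp3 was at 5.89, 6.08, 6.40 and 6.39 log2 with vehicle, 6.87, 6.56, 6.52 and 6.57 with TCDD, and 6.81, 6.51, 6.92, 6.65 and 6.50 with Cl-BBQ. Every array of both ligand groups was above every vehicle array. It rose by 0.49 ± 0.13 log2 (SE), or 1.41-fold, with Cl-BBQ (limma, adjusted p = 0.023), and its TCDD difference of 0.44 ± 0.14 did not pass (limma, adjusted p = 0.075). The Cl-BBQ call was lost without vehicle replicate 1 (limma, adjusted p = 0.084), vehicle replicate 2 (0.072) or Cl-BBQ replicate 3 (0.057). The immunity-related GTPase genes of the list did not follow: Igtp differed by -0.12 and 0.07 (limma, adjusted p = 0.72 and 0.82) and Irgm1 by -0.23 and -0.13 (adjusted p = 0.24 and 0.48).

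The 3 antigen-processing genes all had negative differences with both ligands, and Psmb8 fell with Cl-BBQ. Psmb8 and Psmb9 encode catalytic subunits of the immunoproteasome, and Tap1 encodes a chain of the peptide transporter that loads MHC class I. Psmb8 was at 10.05, 10.02, 9.96 and 10.01 log2 with vehicle, 9.82, 9.78, 9.86 and 9.76 with TCDD, and 9.72, 9.71, 9.80, 9.72 and 9.69 with Cl-BBQ. Both treated groups lay wholly below vehicle, and Psmb8 had the smallest spread within groups of all 38 genes, 0.04 log2. It fell by 0.28 ± 0.07 log2 (SE), 1.22-fold lower, with Cl-BBQ (limma, adjusted p = 0.015). The TCDD difference was -0.20 ± 0.07 (SE; limma, adjusted p = 0.13).

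Psmb9 went from 11.57 ± 0.11 with vehicle (SD, n = 4) to 11.41 ± 0.06 with TCDD (SD, n = 4) and 11.34 ± 0.11 with Cl-BBQ (SD, n = 5), and the groups overlapped. Its differences of -0.16 and -0.23 did not pass (limma, adjusted p = 0.40 and 0.12). Tap1 was at 9.05 to 9.14 with vehicle, 8.73 to 9.09 with TCDD and 8.59 to 8.96 with Cl-BBQ. The Cl-BBQ arrays were all below vehicle, by a mean difference of -0.27 that did not pass (limma, adjusted p = 0.085).

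None of the 8 regulators and adaptors was called with either ligand, with 1 at an unadjusted p under 0.05 with TCDD and 0 with Cl-BBQ (limma). Over all genes tested 6.71% (TCDD) and 11.3% (Cl-BBQ) were called, and 18% and 23% had an unadjusted p under 0.05. Their differences ran from -0.19 to 0.28 with TCDD and from -0.17 to 0.21 with Cl-BBQ. Rtp4, a chaperone for receptors at the cell surface, came nearest to a call, at 9.55, 9.61, 9.34 and 9.76 log2 with vehicle, 10.07, 9.55, 9.93 and 9.82 with TCDD, and 9.66, 9.59, 9.97, 9.76 and 9.89 with Cl-BBQ. The groups overlapped, and the differences were 0.28 and 0.21 (limma, adjusted p = 0.27 and 0.34). Usp18, the protease that removes ISG15 and blocks IFNAR2, differed by -0.19 (95% interval -0.66 to 0.29) and -0.08 (-0.53 to 0.37). Without TCDD replicate 2 the TCDD difference of Usp18 was 0.08.

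Upstream of these genes, most interferon transcripts in these sorted cells were at or below the floor, and interferon made by other cells was not measured. Of 16 measured interferon genes 10, Ifnb1 among them, were at or below the floor on all vehicle and all TCDD arrays. The 6 tested had 0 called and 0 (TCDD) or 2 (Cl-BBQ) at an unadjusted p under 0.05 by limma. Over all genes tested 6.71% (TCDD) and 11.3% (Cl-BBQ) were called, and 18% and 23% had an unadjusted p under 0.05. Ifng, which encodes interferon-gamma, was at 6.74, 5.88, 6.04 and 5.87 log2 with vehicle, 6.36, 6.35, 6.58 and 6.68 with TCDD, and 6.76, 6.89, 6.36, 6.48 and 7.23 with Cl-BBQ. Vehicle replicate 1 was above the TCDD arrays and within the Cl-BBQ range, and the other vehicle arrays were below both. The Cl-BBQ difference of 0.61 ± 0.19 (SE) did not pass (limma, adjusted p = 0.059), but did without vehicle replicate 1 (0.0068) or Cl-BBQ replicate 3 (0.035). It passed as well with a stricter filter on low values (limma, adjusted p = 0.044) or an intensity trend in the prior (0.045).

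Of 9 tested receptor, kinase and STAT genes, 1 rose with TCDD and none fell (6.71% of all genes tested were called in either direction). With Cl-BBQ 2 rose and 1 fell (11.3%). Ifngr1, the ligand-binding chain for interferon-gamma, was at 8.12, 8.29, 8.05 and 7.90 log2 with vehicle, 8.99, 9.00, 8.94 and 8.95 with TCDD, and 9.06, 9.22, 9.32, 9.10 and 9.28 with Cl-BBQ. All treated arrays were above all vehicle arrays. It rose by 0.88 ± 0.10 log2 (SE) with TCDD (limma, adjusted p = 4.4e-05) and 1.11 ± 0.09 with Cl-BBQ (limma, adjusted p = 1.3e-06). Ifngr2, the partner chain, had negative differences of -0.50 and -0.35 that did not pass (limma, adjusted p = 0.20 and 0.31). The TCDD difference did pass without Cl-BBQ replicate 4 (limma, adjusted p = 0.027) or with only the 2 groups compared in the fit (0.031).

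For the type I receptor the chains differed in sign. Ifnar2, the high-affinity chain, was at 9.47, 9.49, 9.47 and 9.77 log2 with vehicle, 9.11, 9.22, 9.15 and 9.26 with TCDD, and 9.33, 8.87, 9.18, 9.08 and 9.05 with Cl-BBQ, with both treated groups wholly below vehicle. It fell by 0.45 ± 0.10 (SE) with Cl-BBQ (limma, adjusted p = 0.0089), and its TCDD difference of -0.36 ± 0.11 did not pass (limma, adjusted p = 0.06), though it did without Cl-BBQ replicate 1 (0.036) or 2 (0.044). The TCDD difference of Ifnar2 also passed with a stricter filter on low values (limma, adjusted p = 0.039), an intensity trend in the prior (0.022) or array weights (0.026). Ifnar1 was 0.17 and 0.22 higher, without passing (limma, adjusted p = 0.27 and 0.086). Il10rb, a chain shared by the interleukin 10 and interferon-lambda receptors, rose by 0.43 ± 0.11 with Cl-BBQ (limma, adjusted p = 0.015), a call lost without vehicle replicate 1 (0.054) or 2 (0.051). Jak1, Jak2, Tyk2 and Stat3 were not called with either ligand.

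Of 13 tested negative regulators of cytokine or interferon signalling, 2 rose and 1 fell with each ligand. Over all genes tested 6.71% (TCDD) and 11.3% (Cl-BBQ) were called. Socs3, an inhibitor of Janus kinases, was at 5.68, 6.08, 6.85 and 6.27 log2 with vehicle, 7.03, 6.88, 7.19 and 7.08 with TCDD, and 7.68, 7.68, 7.70, 7.27 and 7.52 with Cl-BBQ, with no overlap between vehicle and treated arrays. It rose by 0.83 ± 0.19 (SE) with TCDD (limma, adjusted p = 0.015) and 1.35 ± 0.18 with Cl-BBQ (limma, adjusted p = 0.00012). Cish, a relative of Socs3 induced by STAT5, rose by 1.36 ± 0.18 and 1.58 ± 0.17 (limma, adjusted p = 0.00025 and 2e-05). Ptpn11, which encodes the phosphatase SHP-2, fell by 0.67 ± 0.11 and 1.03 ± 0.11 (limma, adjusted p = 0.0017 and 1.3e-05), from 8.02 to 8.25 with vehicle to 7.23 to 7.57 with TCDD and 6.82 to 7.28 with Cl-BBQ. Ptpn6, which encodes the phosphatase SHP-1, differed by 0.30 and 0.27 without passing (limma, adjusted p = 0.071 and 0.067), and passed with TCDD without TCDD replicate 2 (0.035).

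**Figure D4:**
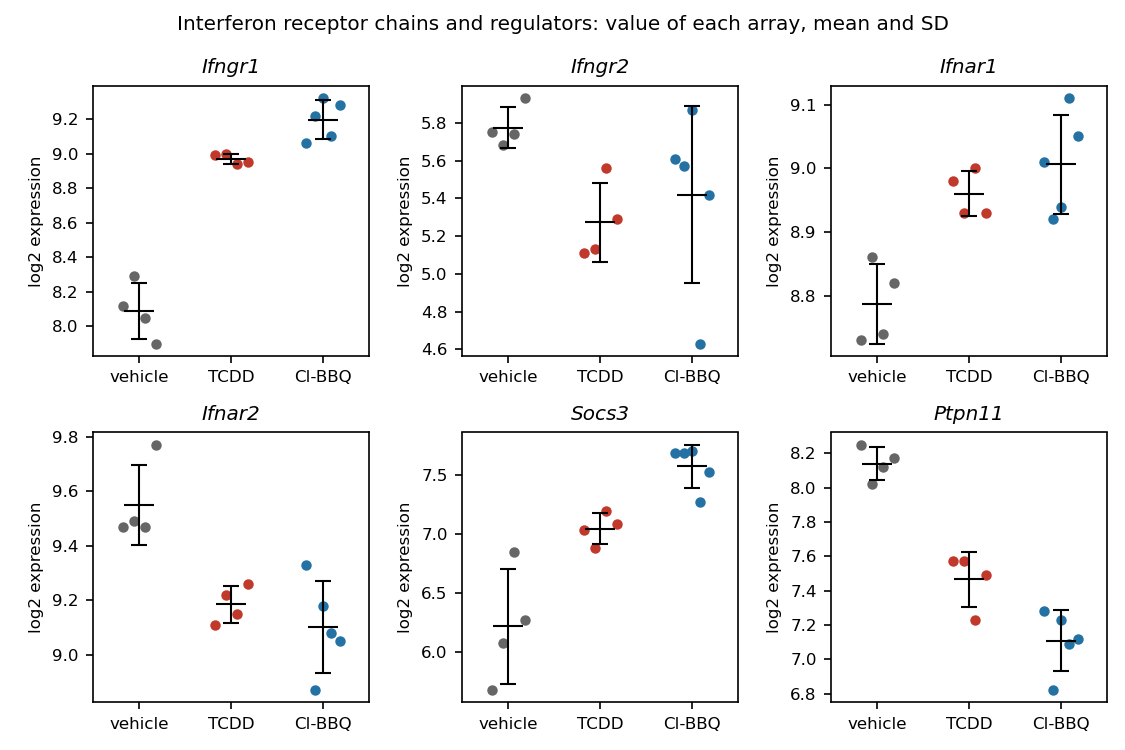
Log2 level (vertical axis) on each array by group of the receptor chain genes Ifngr1, Ifngr2, Ifnar1 and Ifnar2 and the signalling regulators Socs3 and Ptpn11, with the group mean and SD. The treated arrays lie wholly above vehicle for Ifngr1, Ifnar1 and Socs3 and wholly below for Ifnar2 and Ptpn11; of these, Ifnar1 passed the test with neither ligand and Ifnar2 not with TCDD.

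Interferon-stimulated genes outside the 38 were counted in the same way. Of 52 tested, 1 rose with TCDD and 3 with Cl-BBQ, none fell, and the median differences were 0.05 and 0.04 log2. At an unadjusted p under 0.05 there were 9 and 10 (limma). None of these shares exceeded that over all genes tested, where 6.71% and 11.3% were called and 18% and 23% had an unadjusted p under 0.05. Epsti1, named for epithelial-stromal interaction, rose with both, from 9.41 ± 0.15 with vehicle (SD, n = 4) to 10.06 ± 0.24 with TCDD (SD, n = 4) and 10.31 ± 0.15 with Cl-BBQ (SD, n = 5; limma, adjusted p = 0.0055 and 0.00013). Shisa5 rose by 0.34 with Cl-BBQ (limma, adjusted p = 0.019), a call lost without vehicle replicate 1 (0.052) or 3 (0.064). Ms4a4b rose by 0.31 with Cl-BBQ (limma, adjusted p = 0.043) and was called in 3 of 13 fits that left out 1 array (vehicle replicate 2, TCDD replicate 2 or TCDD replicate 4), with an adjusted p of up to 0.13.

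Of 7 further tested interferon-gamma GTPase genes, with median differences of -0.10 and 0.03, 1 was called with each ligand (6.71% and 11.3% of all genes tested). This gene, Iigp1, an immunity-related GTPase, fell with both ligands. It was at 8.54, 8.96, 8.96 and 9.10 log2 with vehicle, 8.09, 7.13, 8.39 and 7.93 with TCDD, and 7.78, 8.18, 8.28, 7.57 and 8.30 with Cl-BBQ. All treated arrays were below all vehicle arrays, with differences of -1.01 ± 0.24 (SE; limma, adjusted p = 0.018) and -0.87 ± 0.23 (SE; limma, adjusted p = 0.021). Leaving out vehicle replicate 4 ended both calls (0.053 and 0.065), and the Cl-BBQ call was also lost without vehicle replicate 2 (0.056), vehicle replicate 3 (0.058) or Cl-BBQ replicate 4 (0.053). The 13 further antigen-processing genes had median differences of -0.02 with TCDD (range -0.49 to 0.12) and 0.06 with Cl-BBQ (-0.54 to 0.29). Of these, 0 and 1 were called by limma, with 2 and 3 at an unadjusted p under 0.05. Over all genes tested 6.71% and 11.3% were called, and 18% and 23% had an unadjusted p under 0.05. The called gene H2-Q4, a class I gene of the Q region, fell by 0.54 with Cl-BBQ (limma, adjusted p = 0.04), a call lost without vehicle replicate 1, 2 or 4, TCDD replicate 4, or Cl-BBQ replicate 1, 2 or 5 (up to 0.12).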

How the data were processed

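The deposited table held log2 expression per probe set on 13 single-colour arrays. RMA, named in the submitters' processing notes, produced them (background correction, quantile normalization, probe summary); version not given in the sources used here. Such normalization hides a shift of all transcripts at once. Per the labels, the arrays of a group are biological replicates, and their number limits the precision. Array-to-array correlations over 41345 probe sets ran from 0.943 to 0.976.

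Of 25335 annotated probe sets 23521 had 1 symbol, which gave 22180 genes; 12710 were tested. One model with 3 group means was fitted in limma 3.58.1 (R 4.3.3) with lmFit and eBayes, with 10 residual and 4.22 prior degrees of freedom. Contrasts were two-sided, with Benjamini-Hochberg adjustment over all genes tested and calls at an adjusted p under 0.05. SE and 95% intervals are the model's. The pipeline was tested on simulated data. Alternatives changed the filter, probe set, scaling, prior, weights and arrays used.

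The members and lists were chosen with earlier results of these data known. Any member could be named, with values by array for called genes and the leading gene of a role; of the other lists, called genes and up to 4 with the smallest adjusted p were named, and any gene of the interferon, receptor and sensing lists. Cd4 was added as a check of identity. TCDD and Cl-BBQ share the vehicle arrays, so their differences from vehicle are not independent.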

Additional observations from a re-analysis of the deposited data

Results flagged for a closer look

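Sets of arrays were examined, each 1 gene in 1 group. In 11 of 114 sets the highest or lowest array lay apart from the others by Dixon's test at its 95% value. Independent normal values would give about 1 in 20. These sets are not independent, because single arrays were shifted over the whole list, so the count is not read against that rate. The share over all genes was not computed. TCDD replicate 2 was low for 3 genes of the type I response. Isg15 was at 8.66 log2 there, against 9.16 to 9.22 on the other TCDD arrays. Oasl2 was at 5.95 against 6.62 to 6.75, and Usp18, the protease for ISG15, was at 7.06 against 8.05 to 8.18. Vehicle replicate 3 was low for Isg20, an exonuclease gene, at 8.12 against 8.27 on each of the others. It was low also for Irf1, at 7.01 against 7.30 to 7.32, and for Dhx58, at 6.71 against 7.28 to 7.38.

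TCDD replicate 3 was high for Irf1, at 7.62 against 7.28 to 7.30, and for Oasl1, at 5.66 against 5.35 to 5.39. TCDD replicate 1 was high for Gbp3, at 6.87 against 6.52 to 6.57. Cl-BBQ replicate 4 was low for Ifih1, at 7.86 against 8.36 to 8.54, and for Parp14, at 8.22 against 8.46 to 8.52. Their part in the group differences was not tested beyond leaving out each array.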

How the results depend on the processing

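Of 2505 differences of single genes refitted under the alternatives, 2466 kept their direction and side of the threshold, or changed sign without being called either way, as 102 did; 33 lost a call, 6 gained one and no call reversed. The count of genes called with TCDD, 2 in the model reported, was 0 with no filter on low values and 0 with only the groups compared in the fit. It was 1 with the probe set of largest variance, 1 with arrays centred on their medians and 1 with the replicate number as a block, and it ran from 0 to 2 when 1 array was left out. With no filter more genes were tested, and with fewer arrays the spread rests on fewer; the cause was not tested otherwise. For Cl-BBQ, 6 genes were called, 9 with an intensity trend in the prior (Zbp1, Psmb9 and Tap1 added) and 5 with the replicate block, where Psmb8 was lost (limma, adjusted p = 0.09); leaving out 1 array gave 5 to 6. Between the ligands the count was 0 in every alternative run. With TCDD, Irf8 was called with the mean of all probe sets (limma, adjusted p = 0.021), Gbp3 with array weights (0.034) and Psmb8 with the intensity trend (0.024). Replicate numbers did not pair the arrays: over 12 same-numbered pairs the correlation of deviations was -0.059 to 0.075, and 2 arrays correlated best with their own number. Groups of 4 and 5 arrays limit what small differences can be called, and Mx1 lies near the floor.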
